A study of Homo sapiens with 3 samples.

Results

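IGF2BP1, IGF2BP2 and IGF2BP3 and 7 genes that write, erase or read N6-methyladenosine (m6A) were followed in SK-Hep-1 cells with and without a knockdown of the long noncoding RNA LINC01089. The 10 genes were taken by name from the 22464 genes of the deposited expression table, and all 10 were found there and passed the filter on low values, a mean of at least 1 FPKM. SK-Hep-1 is an established human cell line, labelled as liver. The study compared 3 stably infected lines: sh1089-1 and sh1089-2 carry different lentiviral hairpins against LINC01089, and shNC carries a negative control hairpin. Whether the lines are pools or clones is not given in the sources used here. Each line gave 1 RNA sequencing library, so no spread between replicates exists and no difference was tested. Intervals below are 95% counting intervals, which cover the sampling of reads only and not the variation between cultures or infections.

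m6A is a methyl mark that is placed on adenosines of newly made RNA. METTL3 is the catalytic methyltransferase, METTL14 its RNA-binding partner and WTAP the subunit that brings the pair to nuclear speckles. ALKBH5 and FTO are demethylases that can remove the mark. YTHDF2 binds marked mRNA in the cytoplasm and brings it to decay, while YTHDC1 binds it in the nucleus and acts in splicing and export. The IGF2BP proteins are RNA-binding proteins of fetal tissues that return in many tumours, liver cancer included, and they bind marked mRNA and shield it from decay. The series asks what the knockdown does to gene expression, and the comparison gives the mRNA levels of these proteins in the knockdown lines. The mark itself and the proteins were not analysed here, and neither was LINC01089, so the knockdown itself was not checked in these data and the lines are named by their labels.

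The libraries held 8359832 to 10698480 reads, as worked out from the FPKM values, and the 10 genes rested on 79 to 2906 reads in each library. Of the hepatocyte markers, TTR, APOA1 and FGB were listed at 0 in every library and SERPINA1 alone passed the filter, with 5.91, 8.004 and 4.69 FPKM in sh1089-1, sh1089-2 and shNC. The endothelial markers PECAM1, CDH5 and VWF had at most 4 reads in any library, while ENG and EGFL7 were measured. The 6 hepatocyte markers in the table summed to 6.39, 8.36 and 5.19 FPKM and the 9 endothelial ones to 72.5, 66.8 and 64.5 FPKM. So most defining markers of either cell type were at or near 0. The 5 leukocyte markers in the table summed to 2.79, 2.37 and 2.90 FPKM. All 6 proliferation markers were at least 25% higher in both hairpin libraries on the log2(FPKM + 1) scale, where 8.15% of all genes that passed the filter were, with sums of 312 and 315 FPKM in sh1089-1 and sh1089-2 and 179 FPKM in shNC. Their part in the differences below was not tested.

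ALKBH5 was the most abundant of the 10 mRNAs in each library, and METTL14 and FTO were the least abundant. FPKM divides reads by gene length, so levels can be set side by side between genes. ALKBH5 lay apart from the next gene in each library by more than the counting intervals. YTHDF2 and IGF2BP2 followed. Their intervals overlapped in shNC and sh1089-2 and not in sh1089-1, where YTHDF2 was the higher. IGF2BP1 came next in all 3 libraries. IGF2BP3 stood below METTL3 in both hairpin libraries and above it in shNC, each time by more than the counting intervals, with the lengths behind the deposited values. WTAP and YTHDC1 had overlapping intervals in each library. The length behind the deposited values, as recovered from them, was near the full exon length of each gene. Over the principal transcript alone, a setting chosen after the data were examined, METTL3 stood at 30.6, 32.7 and 25.5 FPKM in sh1089-1, sh1089-2 and shNC, above IGF2BP1 in each. It was then above IGF2BP3 in shNC too, where IGF2BP3 stood at 20.5 FPKM, so the switch in their order did not hold. IGF2BP3 was in turn above IGF2BP1 in shNC with this length, and below it in both hairpin libraries. With this length ALKBH5 stayed highest and FTO and METTL14 lowest.

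**Figure D1:**
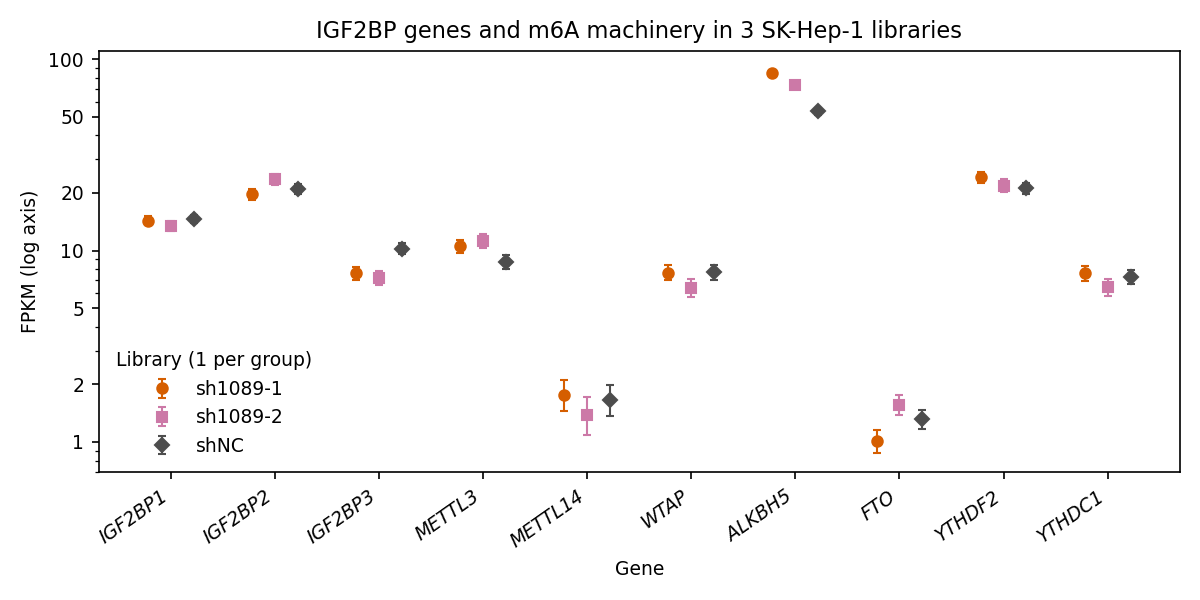
FPKM of the 10 genes on a log axis in the libraries sh1089-1, sh1089-2 and shNC, 1 library per group. Points are deposited values and bars are 95% Poisson counting intervals. ALKBH5 is highest in each library at 84.7, 72.9 and 53.4 FPKM, and IGF2BP3 lies lower in both hairpin libraries, at 7.61 and 7.20 FPKM, than in shNC at 10.2 FPKM.

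Among the IGF2BP family, IGF2BP3 mRNA was lower in both hairpin libraries, while IGF2BP1 and IGF2BP2 lay within 1.12-fold of the control. IGF2BP3 (ENSG00000136231, chromosome 7, 23310209 to 23470467, minus strand, GRCh38) had 7.61 FPKM in sh1089-1 and 7.20 in sh1089-2, against 10.2 in shNC. These values rest on 619, 514 and 933 reads, and in bulk RNA fewer cells with the mRNA and less of it per cell cannot be told apart. The hairpin libraries lay near each other and both below the control. IGF2BP3 was 1.34-fold lower in sh1089-1 (1.21 to 1.49) and 1.42-fold lower in sh1089-2 (1.27 to 1.58) than in shNC. In log2(FPKM + 1) the differences were −0.38 and −0.45, and −0.07 between sh1089-2 and sh1089-1. Of the 11198 genes that passed the filter, 14.1% lay further below shNC than IGF2BP3 in sh1089-1 and 9.81% in sh1089-2, so a difference of this size was not rare. Both comparisons used the same shNC library, so a low value in each is not a repeat of the finding.

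IGF2BP1 (ENSG00000159217, chromosome 17, 48997412 to 49055650, plus strand) had 14.4, 13.5 and 14.6 FPKM in sh1089-1, sh1089-2 and shNC. Its ratios to shNC were 0.985 (0.914 to 1.06) and 0.925 (0.855 to 1.00). IGF2BP2 (ENSG00000073792, chromosome 3, 185643739 to 185825056, minus strand) had 19.6, 23.5 and 21.0 FPKM. Its values lay on opposite sides of shNC, with a ratio of 0.933 (0.853 to 1.02) for sh1089-1 and 1.12 (1.02 to 1.22) for sh1089-2. In sum the 3 family members came to 41.6, 44.2 and 45.8 FPKM in sh1089-1, sh1089-2 and shNC. With the lengths behind the deposited values, IGF2BP3 made up 18.3%, 16.3% and 22.3% of that sum. IGF2BP2 was then the largest contributor per length with 47.2%, 53.2% and 45.9%. Over the principal transcripts IGF2BP2 stayed the largest in each library, and IGF2BP3 stood above IGF2BP1 in shNC only. Shares of FPKM were not computed over those transcripts, so the ones given hold for the deposited lengths only. By reads IGF2BP1 was the largest, with 46.7%, 42.9% and 42.9%, against 31.4%, 36.8% and 30.4% for IGF2BP2. Reads weigh IGF2BP1 and IGF2BP3 more, as the lengths behind their deposited values, 9631 and 8535 exonic bases, exceed the 4735 of IGF2BP2. Of the family reads IGF2BP3 made up 21.9% (20.4% to 23.5%) in sh1089-1, 20.3% (18.8% to 21.9%) in sh1089-2 and 26.6% (25.2% to 28.1%) in shNC (exact Clopper-Pearson intervals).

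How alike the paralogs are in sequence bears on how reads are assigned to them. The coding sequences of IGF2BP1 and IGF2BP3 had 70.5% identical bases over their aligned length, those of IGF2BP2 and IGF2BP3 70.7%, and those of IGF2BP1 and IGF2BP2 70.0%. The longest run shared between any pair was 22 bases, between IGF2BP1 and IGF2BP2, and no stretch of 31 bases was shared by any 2 of the 3 principal transcripts. The window below holds the longest runs that IGF2BP1 shares with IGF2BP2 and with IGF2BP3 and is shown to let the 3 genes be compared around those runs. It lies early in the coding sequence, in the first RNA-recognition motif, from coding base 94 to 156 in IGF2BP1 and IGF2BP3 and 97 to 159 in IGF2BP2 (GENCODE 29 transcripts, sense strand). Capitals mark the 42 of 63 bases that are identical in all 3 genes.
IGF2BP1: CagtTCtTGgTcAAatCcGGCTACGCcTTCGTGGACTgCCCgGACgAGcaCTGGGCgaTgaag
IGF2BP2: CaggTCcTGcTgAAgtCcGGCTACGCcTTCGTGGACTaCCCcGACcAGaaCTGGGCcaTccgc
IGF2BP3: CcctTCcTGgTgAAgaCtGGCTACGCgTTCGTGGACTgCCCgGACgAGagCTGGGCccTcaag
Here IGF2BP3 matches IGF2BP1 at 50 bases and IGF2BP2 at 48. The longest run that IGF2BP2 and IGF2BP3 share, 14 bases, lies elsewhere in the coding sequences. IGF2BP3 does share sequence with another gene by position: 1521 of its exonic bases, 17.9% of its exons in GENCODE 29, lie across from exons of MALSU1, a mitochondrial ribosome assembly gene on the opposite strand. MALSU1 had 16.5, 17.2 and 18.3 FPKM in sh1089-1, sh1089-2 and shNC. The libraries were strand-specific, but whether the counting used the strand is not given in the sources used here.

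Of the writers, METTL3 was higher than shNC with both hairpins, METTL14 was so in sh1089-1 only, by less than its counting interval, and WTAP with neither. METTL3 (ENSG00000165819, chromosome 14, 21498133 to 21511375, minus strand) had 10.5 FPKM in sh1089-1, 11.2 in sh1089-2 and 8.76 in shNC. Both hairpin libraries lay above the control, at ratios of 1.20 (1.07 to 1.35) and 1.28 (1.14 to 1.45). The differences in log2(FPKM + 1) were 0.24 and 0.33, and 79.3% and 86.9% of all genes that passed the filter lay below them. METTL3 shares 388 exonic bases with TOX4, a gene on the opposite strand that had 15.8, 15.7 and 13.5 FPKM.

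METTL14 (ENSG00000145388, chromosome 4, 118685368 to 118715433, plus strand) had 1.77, 1.38 and 1.65 FPKM in sh1089-1, sh1089-2 and shNC, on 115, 79 and 121 reads. Its ratios to shNC were 1.07 (0.819 to 1.39) and 0.836 (0.621 to 1.12), so no difference could be detected with so few reads. In FPKM, METTL3 stood 5.96-fold (4.87 to 7.34), 8.12-fold (6.41 to 10.4) and 5.29-fold (4.34 to 6.50) above METTL14 in sh1089-1, sh1089-2 and shNC. Over the principal transcripts the ratios were 16.9, 23.0 and 15.02, so the length used moves them by more than the counting intervals. With either length METTL3 was above METTL14 in each line.

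WTAP (ENSG00000146457, chromosome 6, 159725585 to 159756319, plus strand) had 7.68, 6.38 and 7.68 FPKM in sh1089-1, sh1089-2 and shNC. The value in sh1089-1 equalled the control, and that in sh1089-2 was 1.20-fold lower (1.05 to 1.38). WTAP lies across from SOD2, the mitochondrial superoxide dismutase gene, and shares 298 exonic bases with the one of its 2 identifiers with more reads. That identifier had 4.13, 4.75 and 10.5 FPKM, so SOD2 was lower in both hairpin libraries while WTAP was level in sh1089-1. Its part in the WTAP values was not tested.

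Of the demethylases, ALKBH5 was higher in both hairpin libraries, with the largest difference among the 10 genes in sh1089-1. In sh1089-2 IGF2BP3 lay further from shNC, below it, at −0.45 against 0.44 for ALKBH5 in log2(FPKM + 1). That order switched after rescaling to TPM, at −0.42 and 0.52, and by median of ratios, at −0.41 and 0.49. ALKBH5 (ENSG00000091542, chromosome 17, 18183078 to 18209954, plus strand) had 84.7 FPKM in sh1089-1, 72.9 in sh1089-2 and 53.4 in shNC, on 2906, 2195 and 2056 reads. Both hairpin libraries lay above the control, and sh1089-1 lay above sh1089-2. The ratio to shNC was 1.59 (1.499 to 1.68) in sh1089-1 and 1.37 (1.29 to 1.45) in sh1089-2, and the ratio of sh1089-2 to sh1089-1 was 0.861 (0.814 to 0.910). In log2(FPKM + 1) the differences from shNC were 0.66 and 0.44, and 95.8% and 91.7% of all genes that passed the filter lay below them.

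The genes around ALKBH5 on chromosome 17 were higher as well. Neighbours, here and below, were the next measured protein-coding genes by start position, in equal numbers on either side where as many existed. The 50 of ALKBH5 reached from −2.68 to 9.11 Mb from its start. Their median difference from shNC was 0.39 in sh1089-1 and 0.23 in sh1089-2. Over all 10313 protein-coding genes that passed the filter it was −0.02 and −0.04. In both hairpin libraries 34 of the 50 lay above shNC, where 34.0% of all these genes did. Over the 20 nearest genes the medians were 0.47 and 0.36, and 17 of the 20 were above shNC in both. The close neighbours FLII, an actin regulator, TOP3A, a DNA topoisomerase, and SHMT1, a serine hydroxymethyltransferase, are named here after their values were seen. They are among the neighbours with larger differences. FLII had 153, 130 and 91.7 FPKM in sh1089-1, sh1089-2 and shNC, TOP3A 17.4, 13.7 and 9.21, and SHMT1 16.9, 17.4 and 9.38. ALKBH5 stood 0.27 and 0.22 above the median of its 50 neighbours, and 12 of them in sh1089-1 and 14 in sh1089-2 were further above shNC than ALKBH5 was. The part of the surrounding stretch in the ALKBH5 values was not tested.

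**Figure D2:**
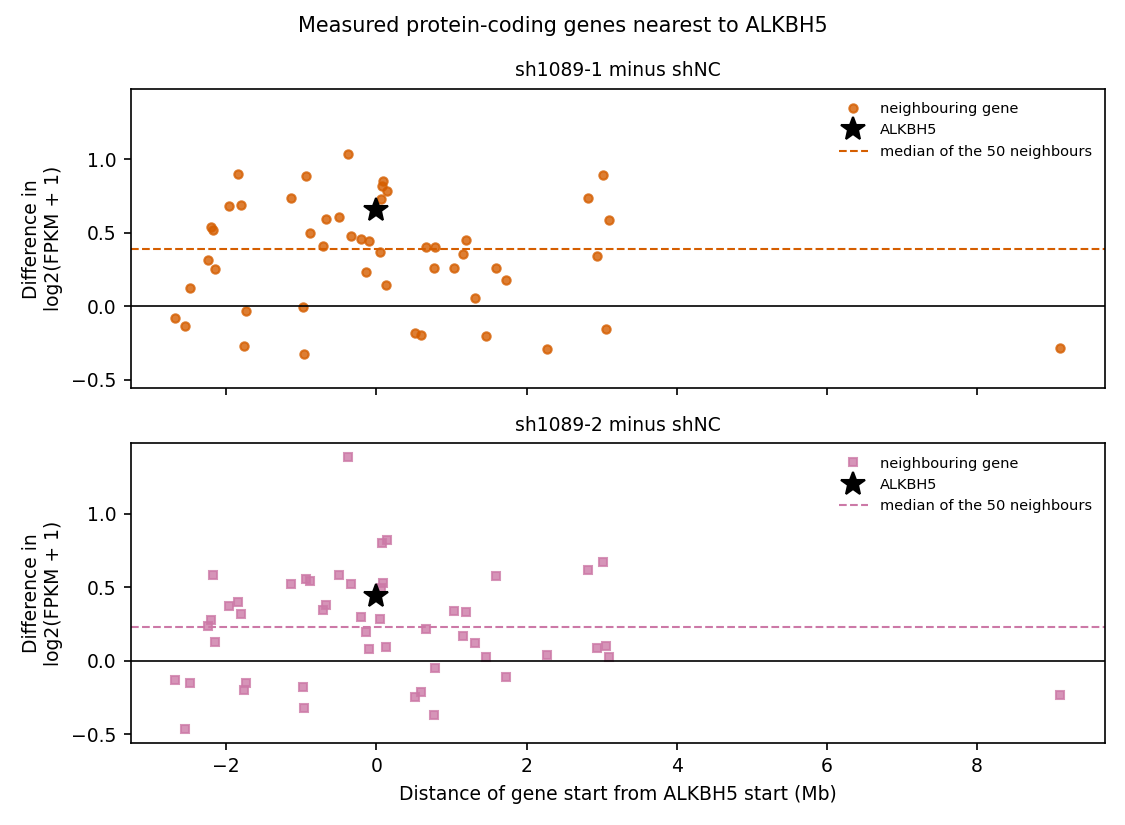
Difference in log2(FPKM + 1) of 50 measured protein-coding genes around ALKBH5, the next ones on either side in equal numbers. They are placed by distance of their start from that of ALKBH5 in Mb, for sh1089-1 minus shNC (top) and sh1089-2 minus shNC (bottom). The star is ALKBH5 at 0.66 and 0.44, and dashed lines are the medians of the neighbours, 0.39 and 0.23.

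The other genes of the 10 had neighbours nearer to the control than those of ALKBH5 were. Those of IGF2BP3 had medians of 0.01 in sh1089-1 and −0.01 in sh1089-2, so IGF2BP3 stood 0.39 and 0.44 below them, and 43 and 47 of the 50 were higher than it. The 42 neighbours of METTL3 had medians of 0.00 and 0.03, and the medians around the remaining genes lay between −0.14 and 0.09. The lowest were around YTHDC1, at −0.14 and −0.13, where YTHDC1 itself stood at 0.06 and −0.15. With the 20 nearest genes the median around FTO in sh1089-2 was −0.18, and that around IGF2BP2 changed from −0.09 to 0.05. The part of the neighbours in the values of these genes was not tested.

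FTO, the other demethylase, lay on opposite sides of the control in the hairpin libraries. FTO (ENSG00000140718, chromosome 16, 53701692 to 54158512, plus strand) had 1.006 FPKM in sh1089-1, 1.57 in sh1089-2 and 1.31 in shNC, on 205, 280 and 300 reads. It was 1.30-fold lower in sh1089-1 (1.09 to 1.56) and 1.19-fold higher in sh1089-2 (1.011 to 1.41) than in shNC. The largest difference was between the hairpins: FTO was 1.56-fold higher in sh1089-2 than in sh1089-1 (1.30 to 1.87). In log2(FPKM + 1), which shrinks low genes, that difference was 0.36. The authors spread FTO reads over 21379 exonic bases, the longest of the 10 genes, which lowers its FPKM. ALKBH5 exceeded FTO 84.2-fold (73.0 to 97.4) in sh1089-1, 46.5-fold (41.1 to 52.9) in sh1089-2 and 40.7-fold (36.0 to 46.1) in shNC. Over the principal transcripts these ratios were 60.7, 33.6 and 29.3. The gap was widest in sh1089-1, where ALKBH5 was at its highest and FTO at its lowest.

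The readers stayed near the control. YTHDF2 (ENSG00000198492, chromosome 1, 28736621 to 28769775, plus strand) had 24.2, 21.8 and 21.1 FPKM in sh1089-1, sh1089-2 and shNC, at ratios to shNC of 1.15 (1.04 to 1.26) and 1.04 (0.934 to 1.15). YTHDC1 (ENSG00000083896, chromosome 4, 68310387 to 68350089, minus strand) had 7.60, 6.43 and 7.26 FPKM, at ratios of 1.05 (0.926 to 1.18) and 0.886 (0.775 to 1.012). Both were lower in sh1089-2 than in sh1089-1, at ratios of 0.903 (0.815 to 0.999) and 0.846 (0.739 to 0.969).

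Counted by size, 1 of the 10 genes, ALKBH5, was at least 1.5-fold above shNC in sh1089-1 on the log2(FPKM + 1) scale, where 5.27% of all 11198 genes were. None was at least 1.5-fold lower in sh1089-1 (background 5.83%), higher in sh1089-2 (4.89%) or lower in sh1089-2 (5.63%), and so none was past the threshold in both. At a lower threshold, at least 25% higher or 20% lower on the same scale, ALKBH5 was the 1 gene higher in sh1089-1 (background 15%), and METTL3 and ALKBH5 were higher in sh1089-2 (13.2%). IGF2BP3 was the 1 gene lower in sh1089-1 (18%) and in sh1089-2 (17.6%). In both hairpin libraries together, ALKBH5 was higher (8.15%) and IGF2BP3 lower (9.92%). A count of 1 in 10 is near these shares. The median difference over the 10 genes was 0.03 in sh1089-1 and −0.03 in sh1089-2, against −0.03 and −0.04 over all genes. The median of these 10 genes thus lay near that of all genes against shNC, while ALKBH5 and IGF2BP3 lay on opposite sides of it. Between sh1089-2 and sh1089-1 the median was −0.11, against −0.01 over all genes. None of the 10 was at least 1.5-fold higher in sh1089-2 than in sh1089-1 (2.47%) or lower (2.3%). At the lower threshold FTO was higher (9.45%) and none was lower (10.1%).

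**Figure D3:**
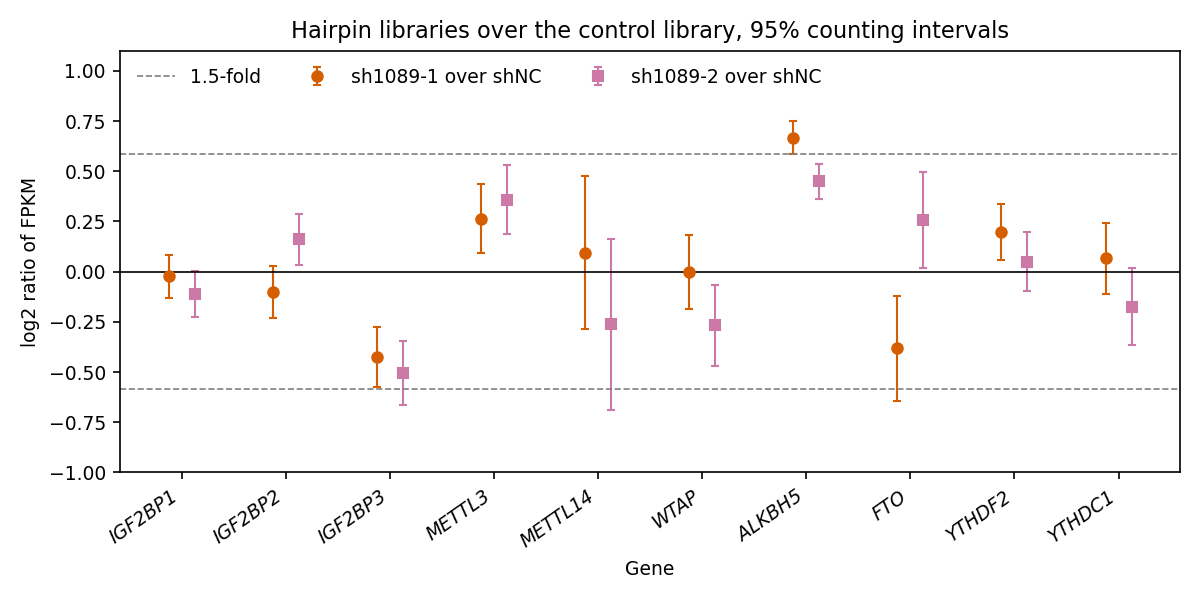
log2 ratio of FPKM, without a pseudocount, of sh1089-1 over shNC and of sh1089-2 over shNC for the 10 genes. Bars are 95% counting intervals and dashed lines mark 1.5-fold. ALKBH5 (ratios 1.59 and 1.37) and METTL3 (1.20 and 1.28) lie above 0 in both libraries, and IGF2BP3, 1.34-fold and 1.42-fold lower, lies below it in both.

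The partners of these genes were described in lists of related function. The 5 other subunits of the writer complex, VIRMA, RBM15, RBM15B, ZC3H13 and CBLL1, which guide and hold the catalytic pair, were all measured and none passed the lower threshold in both hairpin libraries (background 8.15% higher and 9.92% lower). RBM15B, the most abundant of them, had 20.6, 18.3 and 18.0 FPKM in sh1089-1, sh1089-2 and shNC. VIRMA, the large scaffold, had 6.58, 5.86 and 6.76 FPKM. The medians of this list were 0.06 and 0.03. METTL3 itself passed the lower threshold in sh1089-2 only.

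Of 9 other readers, none was 1.5-fold higher or lower in both, and HNRNPC alone passed the lower threshold in both, upward. That is 1 of 9, near the background of 8.15%. HNRNPC, a nuclear RNA-binding protein that reaches sites opened by the mark and the most abundant of the list, had 95.2, 92.2 and 68.3 FPKM in sh1089-1, sh1089-2 and shNC. Its ratios to shNC were 1.39 (1.35 to 1.45) and 1.35 (1.30 to 1.40). YTHDF1 and YTHDF3, the relatives of YTHDF2, had 22.3, 22.8 and 24.2 FPKM and 10.4, 7.63 and 10.1 FPKM. The list had medians of 0.05 and −0.07.

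Among the proteins that act with the IGF2BPs on stable mRNA, 6 were measured. PABPC1, the poly(A)-binding protein, was the most abundant, with 344, 376 and 389 FPKM in sh1089-1, sh1089-2 and shNC. ELAVL1, which encodes HuR, alone passed the lower threshold in both (1 of 6, background 8.15%), with 20.2, 19.8 and 14.9 FPKM and ratios of 1.36 (1.251 to 1.47) and 1.33 (1.22 to 1.45). ELAVL1 was higher and IGF2BP3 lower in the same hairpin libraries, and a link between them was not tested. MATR3 is listed under 2 identifiers with at most 15 reads each in a library and was left out. The medians were 0.17 and −0.04.

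The CCR4-NOT deadenylase, to which YTHDF2 brings its mRNAs, had 11 measured subunits and none past the lower threshold in both hairpin libraries (background 8.15% higher and 9.92% lower). CNOT11, the most abundant, had 18.0, 23.0 and 22.8 FPKM in sh1089-1, sh1089-2 and shNC. CNOT1, the scaffold, had 11.8, 12.4 and 13.4 FPKM. The medians were −0.09 and −0.10. Of the 3 nuclear partners of YTHDC1, the splicing factor SRSF3 alone passed the lower threshold in both, upward (1 of 3, background 8.15%). It had 33.1, 24.9 and 19.7 FPKM at ratios of 1.68 (1.57 to 1.79) and 1.26 (1.17 to 1.36). SRSF10 had 6.84, 5.73 and 5.40 FPKM and NXF1 9.22, 8.36 and 7.32 FPKM. The medians of these partners were 0.30 and 0.17.

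Genes that make and recycle S-adenosylmethionine, the methyl donor of the writers, were set beside them; the metabolite was not analysed here. MAT2B, the regulatory subunit of the synthase, had 7.73 FPKM in both hairpin libraries and 11.6 FPKM in shNC, a level 1.496-fold lower in sh1089-1 (1.32 to 1.70) and 1.49-fold lower in sh1089-2 (1.31 to 1.71). On the log2(FPKM + 1) scale it stayed within 1.5-fold. MAT2A, the catalytic subunit, had 95.3, 127 and 139 FPKM in sh1089-1, sh1089-2 and shNC. Its ratios to shNC were 0.688 (0.661 to 0.715) and 0.919 (0.885 to 0.954). AHCY, which clears the S-adenosylhomocysteine left by the reaction, was higher, with 75.5, 79.3 and 57.6 FPKM. MAT2A and MAT2B thus lay below the control in both hairpin libraries and AHCY above it. At the lower threshold AHCY was higher in both (1 of 3 measured, background 8.15%) and MAT2B lower (1 of 3, background 9.92%). The medians of this list were −0.53 in sh1089-1 and −0.12 in sh1089-2.

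Of 16 mRNAs known as IGF2BP targets, 13 were measured, and IGF2, LIN28B and MAPK4 were listed at 0 in each library. TK1 and MARCKSL1 stood 1.5-fold or more above shNC with both hairpins (background 3.08%) and none below it (2.79%). TK1, thymidine kinase and also a gene of dividing cells, had 147, 141 and 56.8 FPKM in sh1089-1, sh1089-2 and shNC. The proliferation markers lay higher in the same libraries, and their part in the TK1 values was not tested. MARCKSL1, an actin-binding protein gene, had 19.8, 22.6 and 9.01 FPKM at ratios of 2.19 (1.79 to 2.69) and 2.51 (2.05 to 3.08). HMGA2, a chromatin protein of fetal cells, was past the lower threshold downward in both (background 9.92%), with 16.0, 13.6 and 21.1 FPKM. MYC, a classic IGF2BP target, had 59.1, 67.8 and 78.7 FPKM, at ratios of 0.751 (0.715 to 0.790) and 0.862 (0.820 to 0.906). ACTB, the beta-actin gene and the most abundant target here, had 1280, 1281 and 1140 FPKM. Of the 13 measured targets, 8 lay above shNC in both hairpin libraries, where 34.0% of all protein-coding genes that passed the filter did. The other 5 lay below it in both. The share of all genes below it was not computed, so that count is not read further. The medians of the targets were 0.04 and 0.06, against −0.03 and −0.04 over all genes. Over all 61 measured genes of these lists and those of the other RNA methyltransferases and ALKBH genes, 2 (3.28%) passed 1.5-fold upward in both and 0 downward.

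**Figure D4:**
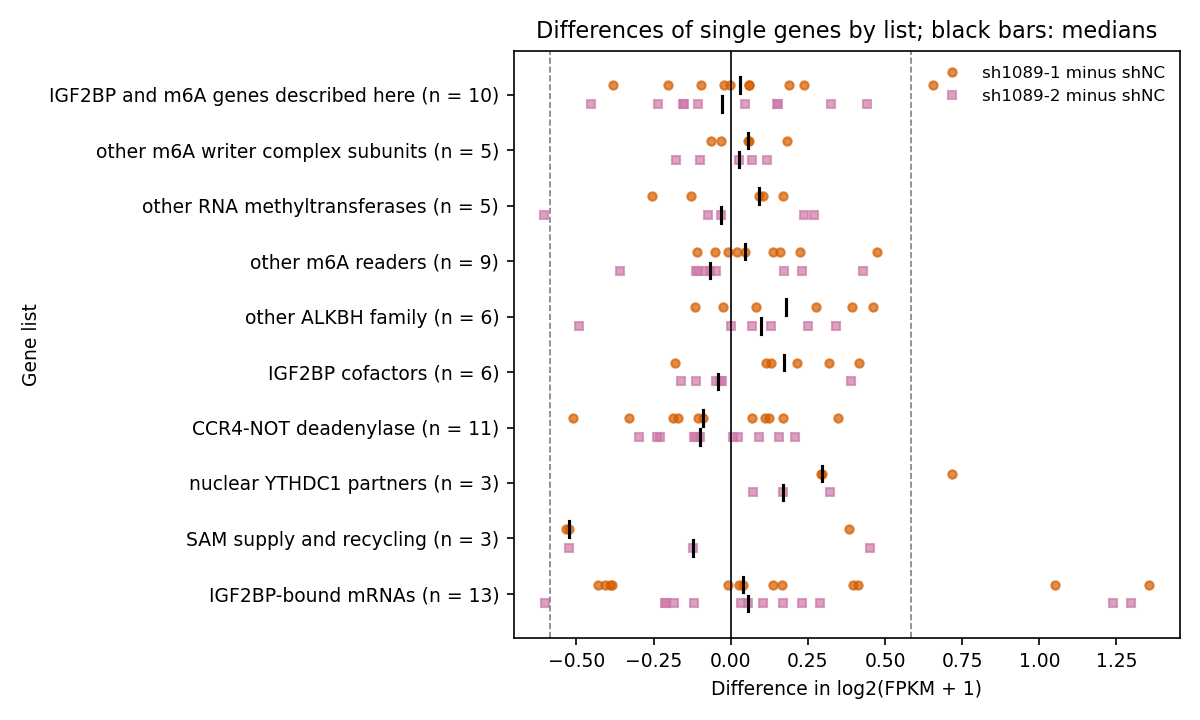
Difference in log2(FPKM + 1) of single genes against shNC, by list, for sh1089-1 (circles) and sh1089-2 (squares), with the list medians as black bars and 1.5-fold as dashed lines. The 10 genes described here centre on 0.03 and −0.03, and the points farthest to the right are the IGF2BP targets TK1 and MARCKSL1.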

How the data were processed

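The authors deposited FPKM per Ensembl gene for 3 libraries of 1 line each. Per the labels' protocols, Trizol RNA was enriched for mRNA and made into strand-specific libraries. FastQC, StringTie and build GRCh38 are listed per the submitters' processing notes. The aligner, the annotation release and all versions are not given in those sources. Symbols were found for 20952 of 22464 identifiers in a table of gene names, positions and exons from GENCODE 29 on GRCh38.

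Whole reads were recovered as FPKM × length × library total. The length used was the one closest to that of GENCODE 29 that made all 3 values whole within rounding. Such a length was found for 99.9% of 19204 genes, alone in 90.5% of them, and 62.0% of the recovered lengths equalled that of GENCODE 29. Library totals were 9528312 (sh1089-1), 8359832 (sh1089-2) and 10698480 (shNC). Intervals of ratios are exact Clopper-Pearson and those of levels exact Poisson, at 95%.

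Differences are in log2(FPKM + 1), with ratios taken without the pseudocount. Over 11198 genes with a mean of at least 1 FPKM, a gene counted as past a threshold at 1.5-fold, or at a lower threshold of 25% higher or 20% lower where named. With 1 library per group there is no replicate check and no test was run, only this rule of size. All 10 genes were named, and from other lists each gene past 1.5-fold in both hairpins and the most abundant of each list; further list genes were named after their values were seen. The genes and lists were chosen with earlier results of these data known. Alternatives were the pseudocount, 3 scalings, thresholds, filters, neighbour numbers and gene length. Python 3.11.15, SciPy 1.17.1 and Biopython 1.88 were used.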

Additional observations from a re-analysis of the deposited data

How the results depend on the processing

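With 1 library per group, nothing here separates the hairpins from other differences between the lines, and counting intervals cover reads only. No paired analysis was possible because each group is 1 library. Over 30 differences of the 10 genes and 4 alternatives (pseudocount of 0.1, TPM, median centring, median of ratios), 4 of 120 values changed sign: IGF2BP1 and WTAP in sh1089-1, at 0.00 and 0.02 in TPM and 0.02 and 0.04 by median of ratios. ALKBH5 ranged from 0.62 to 0.70 in sh1089-1 and 0.44 to 0.52 in sh1089-2, and IGF2BP3 from −0.42 to −0.34 and −0.50 to −0.41. At a pseudocount of 0.1, 1 gene (FTO) was at least 1.5-fold higher in sh1089-2 than in sh1089-1, against 0 at a pseudocount of 1. At 25% higher or 20% lower, 1 gene was lower in sh1089-1, 2 were higher and 1 lower in sh1089-2, 1 was higher and 1 lower in both, and 1 was higher in sh1089-2 than in sh1089-1. Of the list genes 6 were then higher and 2 lower in both. At 2-fold, 0 genes were higher in sh1089-1. Other counts stayed within 1.5 times. The medians of the 10 genes ranged from −0.01 to 0.06 in sh1089-1 and −0.03 to 0.04 in sh1089-2, so they changed sign with the scaling.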

Other observations

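Other methyltransferases of RNA and the remaining ALKBH genes, which act outside the writer complex and its demethylases, showed no member at least 1.5-fold higher or lower in both hairpin libraries (background 3.08% and 2.79%). METTL5, the methyltransferase of the small ribosomal RNA, had 28.9, 22.5 and 34.7 FPKM in sh1089-1, sh1089-2 and shNC, and was 1.20-fold (1.09 to 1.32) and 1.54-fold (1.39 to 1.72) lower. TRMT112, its partner protein and the most abundant of the 5 measured methyltransferase genes, had 87.9, 76.3 and 78.1 FPKM. METTL16, which methylates MAT2A mRNA, had 5.35, 5.60 and 5.94 FPKM. PCIF1, which marks the adenosine next to the mRNA cap, had 14.2, 16.2 and 13.3 FPKM. Of the 6 measured ALKBH genes, ALKBH7, a mitochondrial protein gene, had the highest mean with 21.6, 23.5 and 23.5 FPKM. ALKBH1, which acts on transfer RNA, had 5.38, 5.67 and 4.27 FPKM, and ALKBH4 7.26, 6.14 and 5.001 FPKM. ALKBH8, a transfer RNA modifying gene, had 2.47, 1.51 and 2.53 FPKM, on 106, 57 and 122 reads. ALKBH6 fell under the filter, on 5, 6 and 23 reads.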
